A study of Homo sapiens with 4 samples.

Results

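The genes described here encode the cyclins, the cyclin-dependent kinases (CDKs), the CDK inhibitors, the E2F transcription factors with their dimer partners and pocket proteins, and the enzymes that switch CDKs on and off. They were chosen by name, with earlier results of these data known. The cyclins and CDKs of P-TEFb, Mediator and TFIIH, which act on RNA polymerase II itself, were left out. Of the 58 names, 52 are among the 10147 expressed genes of the TT-seq table, and all 52 are among the 10007 genes with enough reads to be tested. CCNF, CDK4, CDK14, CDKN2D, CKS1B and CKS2 were not analysed here.

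TT-seq counts the RNA made during a short pulse of the nucleoside 4-thiouridine (4sU), so the reads of a gene stand for its RNA synthesis and not for the amount of mature mRNA. K562, the line used, comes from a chronic myelogenous leukemia and has erythroid character. It was edited so that the IWS1 protein, an elongation factor of RNA polymerase II, carries an N-terminal dTAG in controls and treated cells alike. The 2 control libraries came from cells given the solvent DMSO and the 2 dIWS1 libraries from cells given 500 nM of dTAG7, a ligand that sends the tagged protein to degradation, both for 1 h and then with 500 µM 4sU for 5 min. No library of untagged cells with dTAG7 was used, so the ligand and the loss of IWS1 cannot be told apart. Whether the edited line is 1 clone is not stated in the methods.

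Cyclins and CDKs drive the cell through its division cycle. In the textbook order, D-type cyclins with CDK4 and CDK6 begin to phosphorylate the pocket proteins, which releases E2F factors, and E2F factors then turn on the genes of cyclin E, cyclin A, CDK1 and DNA replication. CDK inhibitors hold the kinases back, and ubiquitin ligases remove cyclins and inhibitors at set times. Other family members, such as cyclin K with CDK12 and CDK13 or cyclin L with CDK11, have no place in that order and act in transcription and splicing. K562 cells carry the BCR-ABL1 fusion and lack a working p53.

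The reads behind the deposited means came out as whole numbers in 3 columns, 1 for the control and 2 for dIWS1 (dIWS1 columns 1 and 2), because the control column enters each mean 2 times with the same values. It was counted once. The spread between replicates is therefore known for dIWS1 but not for the control, and a deviation of the single control column cannot be told apart from an effect of dTAG7. Reads in genes amounted to 29832118 in the control column and to 20684301 and 20886697 in the dIWS1 columns, and the spike-in size factors were 1.01, 0.993 and 0.919. Of 15 markers of K562 cells, 14 are in the table with 129 to 46792 control reads, 2 of 7 markers of other blood cells are listed (LYZ with 60 control reads and PTPRC with 15352), and none of 4 markers of stroma and epithelium. IWS1 itself had 3649 scaled reads in the control and 2350.0 and 2639.6 in the dIWS1 columns, which does not check the depletion, since dTAG7 acts on the protein.

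Every value below is either a scaled read number, which is a column's reads divided by its spike-in size factor, or a log2 fold change of dIWS1 over control fitted by limma voom with its standard error (SE) over 1 control and 2 dIWS1 columns. On this spike-in scale the median of all tested genes lay at -0.42, or 74.5% of control (-0.47 in column 1 and -0.37 in column 2), and scaling by total reads would move this median by 0.44. A second value, the fold change relative to the median gene, is therefore given beside the first. Both were tested over all 10007 genes at a Benjamini-Hochberg adjusted p under 0.05. In a bulk sample, fewer cells in a phase of the cycle and less synthesis per cell cannot be told apart.

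RNA synthesis of 26 of the 52 genes fell on the spike-in scale, and none rose. This is 50% called lower, beside 65% of all tested genes called lower and 0.13% called higher. The same shares stand beside the counts in each role list below, and those lists are small. With total reads in place of the spike-ins as the scale, 5 of the 52 were called lower (9.62%, against 13.5% of all tested genes) and 18 higher (34.6%, against 18.3%). On the spike-in scale their median log2 fold change was -0.32, with quartiles at -0.54 and -0.18, against -0.42, -0.60 and -0.26 for all tested genes. Relative to the median gene 6 of the 52 were higher, which is 11.5% against a background of 2.94%, and none was lower, against a background of 4.86%. Because the genes were chosen with earlier results of these data known, the shares are a description and were not tested against the background. At an unadjusted p under 0.05, 12 were higher (23.1%, against 9.9% of all tested genes) and 2 lower (3.85%, against 11.9%) relative to the median gene, and none was higher on the spike-in scale, against 0.18%. In both dIWS1 columns 43 genes lay below the control (82.7%, against 92.7% of all tested genes) and 3 above it (5.77%, against 1.76%), while for the other 6 the columns differed in sign.

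The promoters of 6 genes are shown. CCNL1 and CDK5 had the highest and the lowest fold change of the 52 genes, CDKN1B is the inhibitor called higher relative to the median gene, E2F1 and TFDP1 are an E2F factor and a dimer partner that fell, and the CDK1 window holds each of the motifs that were searched. Each sequence is the RefSeq reference of GRCh38.p14 on the gene's own strand, from 250 bases before to 50 after the start in the promoter table. Capitals mark E2F motifs (TTTCCCGC, TTTGGCGC, TTTCGCGC or TTTGCCGC), the cell-cycle element CHR (TTTGAA) and the CCAAT box, on either strand. The windows are chr3:157160098-157160397 (minus strand) for CCNL1, chr12:12717118-12717417 (plus) for CDKN1B, chr10:60778081-60778380 (plus) for CDK1, chr13:113584503-113584802 (plus) for TFDP1, chr20:33686336-33686635 (minus) for E2F1 and chr7:151057848-151058147 (minus) for CDK5.
CCNL1: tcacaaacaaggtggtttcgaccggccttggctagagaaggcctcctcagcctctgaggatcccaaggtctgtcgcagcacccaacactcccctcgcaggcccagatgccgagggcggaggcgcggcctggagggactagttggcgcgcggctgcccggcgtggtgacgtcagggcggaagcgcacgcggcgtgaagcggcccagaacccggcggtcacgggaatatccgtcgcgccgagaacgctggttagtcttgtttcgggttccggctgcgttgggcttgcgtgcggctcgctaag
CDKN1B: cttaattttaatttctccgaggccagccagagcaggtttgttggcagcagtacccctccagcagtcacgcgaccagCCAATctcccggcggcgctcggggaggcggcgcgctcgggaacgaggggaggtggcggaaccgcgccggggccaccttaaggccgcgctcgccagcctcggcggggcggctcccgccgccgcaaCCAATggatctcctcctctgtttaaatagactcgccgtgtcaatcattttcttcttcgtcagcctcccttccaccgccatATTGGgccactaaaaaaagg
CDK1: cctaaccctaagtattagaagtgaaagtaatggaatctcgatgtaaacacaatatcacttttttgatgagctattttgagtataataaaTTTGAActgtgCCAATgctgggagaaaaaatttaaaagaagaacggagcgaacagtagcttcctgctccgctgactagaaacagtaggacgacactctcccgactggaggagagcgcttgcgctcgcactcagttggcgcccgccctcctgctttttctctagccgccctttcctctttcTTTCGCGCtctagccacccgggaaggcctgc
TFDP1: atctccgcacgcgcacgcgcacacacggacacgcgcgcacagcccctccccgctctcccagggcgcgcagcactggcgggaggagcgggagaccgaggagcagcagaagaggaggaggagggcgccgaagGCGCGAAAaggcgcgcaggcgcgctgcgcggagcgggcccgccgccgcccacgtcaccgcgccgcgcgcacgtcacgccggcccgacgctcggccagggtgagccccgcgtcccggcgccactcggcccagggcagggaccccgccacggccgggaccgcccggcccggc
E2F1: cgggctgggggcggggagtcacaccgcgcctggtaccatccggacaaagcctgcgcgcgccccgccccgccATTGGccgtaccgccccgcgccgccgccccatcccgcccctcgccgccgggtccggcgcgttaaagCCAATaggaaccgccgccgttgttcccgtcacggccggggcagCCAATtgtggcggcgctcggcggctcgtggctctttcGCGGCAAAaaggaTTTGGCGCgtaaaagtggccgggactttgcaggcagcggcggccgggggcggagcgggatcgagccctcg
CDK5: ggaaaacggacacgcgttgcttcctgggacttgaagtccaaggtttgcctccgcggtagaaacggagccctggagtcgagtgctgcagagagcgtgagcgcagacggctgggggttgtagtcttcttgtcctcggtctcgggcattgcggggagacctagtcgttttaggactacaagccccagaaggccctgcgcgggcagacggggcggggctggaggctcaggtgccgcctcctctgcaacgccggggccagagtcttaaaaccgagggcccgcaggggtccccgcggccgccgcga

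The window of CDKN1B holds 3 CCAAT boxes, beginning at bases -174, -50 and 31 counted from the start, the last of them on the other strand. In CDK1 the CHR begins at -161, the CCAAT box at -150 and the E2F motif at 20. The E2F motif of TFDP1 begins at -120 on the other strand, and those of E2F1 at -33 (other strand) and -20, below CCAAT boxes at -179 (other strand), -113 and -70. None of these motifs occur in the windows of CCNL1 and CDK5.

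Over the 43 genes with a promoter in the table, 9 held an E2F motif (20.9%), against 5.76% of the promoters of tested genes and 3.33% of all 27305 promoters. A promoter was counted once for a motif, however many copies it held. The CHR was found in 7 (16.3%, against 9.6% and 15.4%) and the CCAAT box in 18 (41.9%, against 37.6% and 35.7%). The genes with an E2F motif were TFDP1, E2F1, RBL1, CDK10, E2F2, CDK11B, E2F3, CDC25A and CDK1, and their median log2 fold change was -0.49, or -0.07 relative to the median gene. For those with a CHR (FZR1, CDC20, E2F3, RBL2, CCNB2, CDKN3 and CDK1) it was -0.25, or 0.18 relative to the median gene, and for those with a CCAAT box -0.25, or 0.18. These are letter matches in a fixed window, given as a description.

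The D-type cyclins, which open the cycle, all fell on the spike-in scale, beside 65% of all tested genes. With total reads as the scale CCND3 kept its call (-0.25), CCND2 lost it (-0.097) and CCND1 lay at 0.03. CCND3 (cyclin D3) had 5845 scaled reads in the control and 3606 and 3644 in the dIWS1 columns, a log2 fold change of -0.69 ± 0.15 (SE, adjusted p = 3.54e-05). For CCND2 the scaled reads were 4867 in the control against 3226 and 3476, or -0.54 ± 0.15 (adjusted p = 0.00118). CCND1 went from 886 to 651 and 679, or -0.41 ± 0.13 (adjusted p = 0.0042). In each of these genes both dIWS1 columns lay below the control and close to each other. Taken relative to the median gene, the values were -0.27, -0.12 and 0.01 and none passed the threshold. Another protein-coding gene of the GENCODE annotation lies on the same strand over the whole span of CCND2, and reads of this pair cannot be told apart.

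Of the cyclins of S phase and mitosis, which act after the D-type cyclins, none of 5 passed the test on the spike-in scale. CCNE2 (cyclin E2) had 438 scaled reads in the control and 442 and 498 in the dIWS1 columns, both slightly above it, with a log2 fold change of 0.10 ± 0.13 (adjusted p = 0.485). CCNE1 had 735 in the control against 613 and 733, or -0.13 ± 0.13 (adjusted p = 0.352). Cyclin E pairs with CDK2 at the entry into S phase, and the second dIWS1 column of CCNE1 was at the control level while the first lay below it.

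CCNA2 (cyclin A2), which carries S phase forward, had 1344 scaled reads in the control against 1055 and 1178, or -0.27 ± 0.14 (adjusted p = 0.0752). CCNB1, the main mitotic cyclin, had 1899 against 1565 and 1916, or -0.13 ± 0.14 (adjusted p = 0.404), and its dIWS1 columns lay on either side of the control. CCNB2 had 2127 against 1637 and 2016, or -0.23 ± 0.15 (adjusted p = 0.156). In CCNB1 and CCNB2 the dIWS1 columns differed more from each other than the second did from the control. All 5 genes lay above the median gene in both columns, as did 42% of all tested genes, but only CCNE2 passed the test relative to it (0.52, adjusted p = 0.00248). The values of CCNE1, CCNB1, CCNB2 and CCNA2 relative to the median gene were 0.29, 0.29, 0.20 and 0.16.

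**Figure D1:**
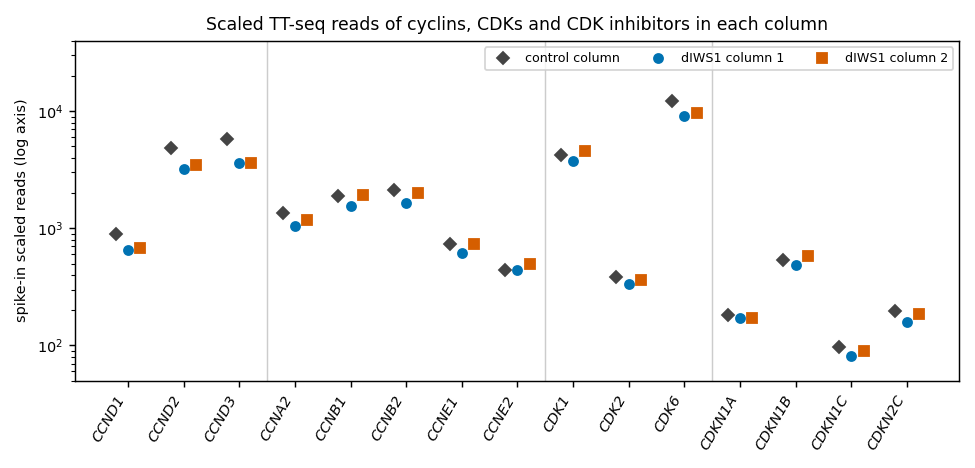
Spike-in scaled TT-seq reads (log axis) of the D-type cyclins, the E-, A- and B-type cyclins, the cell-cycle CDKs and the CDK inhibitors, separated by vertical lines, in the control column (diamonds) and in dIWS1 columns 1 (circles) and 2 (squares). Each symbol is 1 column. For CCNE2 both dIWS1 symbols sit slightly above the control, at 442 and 498 against 438. For CCNB1, CDK1 and CDKN1B they sit on either side of it. For the other genes shown both sit below it, as for 92.7% of all tested genes.

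Of the kinases that these cyclins activate, 1 of 3 was called. CDK6, the partner of D-type cyclins, fell from 12263 scaled reads to 9119 and 9731, a log2 fold change of -0.38 ± 0.15 (adjusted p = 0.0176), and lay at 0.04 relative to the median gene. CDK1, the mitotic kinase, had 4225 in the control and 3736 and 4549.5 in the dIWS1 columns, one below and one above the control, or -0.04 ± 0.15 (adjusted p = 0.834). CDK2, the partner of cyclins E and A, had 383 against 337 and 364, or -0.13 ± 0.13 (adjusted p = 0.375). CDK1 was at 0.39 relative to the median gene (adjusted p = 0.0945) and CDK2 at 0.29 (adjusted p = 0.168), neither past the threshold. No test compared these kinases with each other. CDK6 lost its call with a mean trend in place of voom weights.

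None of the 4 CDK inhibitors in the table passed the test on the spike-in scale. CDKN1B, whose product p27 binds cyclin E and CDK2, had 537 scaled reads in the control and 486 and 585 in the dIWS1 columns, on either side of the control, or -0.01 ± 0.13 (adjusted p = 0.948). CDKN1A, which encodes p21 and is a target of p53, had 180.3 against 170.2 and 173, or -0.07 ± 0.16 (adjusted p = 0.691). Its 3 columns differed little.

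CDKN1C (p57) was the member with the fewest control reads, 98, and had 97.1 scaled reads in the control against 81.6 and 89.2, or -0.19 ± 0.21 (adjusted p = 0.406). CDKN2C, an inhibitor of CDK4 and CDK6, had 195 against 157 and 185, or -0.20 ± 0.16 (adjusted p = 0.257). A change of the size of the median gene was within the 95% interval of CDKN1C and CDKN2C, which ran from -0.59 to 0.22 and from -0.51 to 0.12. The intervals of CDKN1A and CDKN1B began above it, at -0.39 and -0.26. Uncalled genes with more reads also had it within their intervals, such as CCNA2 (from -0.54), CCNB2 (from -0.51) and CDK17 (from -0.54). A missing call therefore does not show that synthesis was unchanged. Relative to the median gene CDKN1B was higher (0.41, adjusted p = 0.0242), and CDKN1A, CDKN1C and CDKN2C, at 0.35, 0.24 and 0.23, did not pass the test.

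The cyclins outside the core order had the highest median of the role lists, and none of the 4 was called on the spike-in scale. CCNG2, an atypical cyclin tied to growth arrest, had 254 scaled reads in the control and 265 and 286 in the dIWS1 columns, or 0.12 ± 0.15 (adjusted p = 0.46). CCNG1, a p53 target, had 1392 against 1387 and 1434, or 0.02 ± 0.14 (adjusted p = 0.901). CCNJ (cyclin J) had 1120.2 against 1069 and 1249.7, or 0.05 ± 0.14 (adjusted p = 0.759). The dIWS1 columns of CCNG2 lay above the control and those of CCNG1 and CCNJ on either side of it. Against the median gene these genes were higher by 0.54, 0.44 and 0.47 (adjusted p = 0.00633, 0.0273 and 0.0143). CCNI, also an atypical cyclin, had 4313 scaled reads against 3289 and 3723, or -0.30 ± 0.15 (adjusted p = 0.0689), and was not called on either scale.

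Among the cyclins that work in transcription and splicing, CCNL1 (cyclin L1, a partner of CDK11 in splicing) had the highest fold change of all 52 genes. Its scaled reads were 3020.0 in the control and 3316 and 3590.2 in the dIWS1 columns, both above the control, or 0.19 ± 0.15 on the spike-in scale (adjusted p = 0.241). Relative to the median gene CCNL1 was 1.53-fold higher, a log2 value of 0.62 (adjusted p = 0.00197), with 0.61 and 0.62 in the single columns. Its paralog CCNL2 fell from 2026 to 1382 and 1609.7, or -0.44 ± 0.14 (adjusted p = 0.00538), and lay at -0.02 relative to the median gene. CCNK (cyclin K) fell as well, with -0.35 ± 0.15 (adjusted p = 0.0315). The 95% intervals of CCNL1, from -0.10 to 0.49, and of CCNL2, from -0.72 to -0.16, did not overlap, but the difference between the paralogs was not tested.

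The transcription-linked kinases fell in all 5 cases on the spike-in scale, beside 65% of all tested genes. With total reads as the scale CDK12 kept its call (-0.16), CDK11A lay at 0.11 and the list median was -0.095. CDK12, which with cyclin K phosphorylates the tail of RNA polymerase II, had 11196 scaled reads in the control against 6844 and 7899, or -0.61 ± 0.15 (adjusted p = 0.000194). CDK11A, a kinase of the splicing machinery, fell least, from 639 to 480.3 and 538, or -0.33 ± 0.13 (adjusted p = 0.0199). CDK10, CDK13 and CDK11B lay between them, at -0.56, -0.54 and -0.49. Their list had a median of -0.54, or -0.11 relative to the median gene, and none of the 5 was called relative to it. CDK11A and CDK11B are near-identical copies and reads matching both would not have been kept as unique alignments, so how the reads of this pair are split is uncertain. A long noncoding RNA of the GENCODE annotation also lies on the same strand over most of CDK11A.

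Of the other CDKs, CDK5, a kinase best known from neurons, had the lowest fold change of all 52 genes, from 106 scaled reads to 65.4 and 52.2, or -0.85 ± 0.22 (adjusted p = 0.000336). It also had the largest SE, and few reads, and relative to the median gene it was at -0.42 (adjusted p = 0.227). CDK17, a kinase of the PCTAIRE family, had 16762 against 13285 and 14862, or -0.25 ± 0.14 (adjusted p = 0.103), and its relative CDK16 fell with -0.41 ± 0.13 (adjusted p = 0.00369).

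The E2F activators, which bind the promoters of S-phase genes, fell in 3 of 3 cases on the spike-in scale, beside 65% of all tested genes. With total reads as the scale E2F1 lost its call (-0.17), E2F3 lay at 0.06 and the list median was -0.050. E2F1 went from 779.5 scaled reads to 501 and 518, or -0.61 ± 0.13 (adjusted p = 2.12e-05). E2F3, the member with the most control reads (27056), went from 26799 to 19849 and 21369.5, or -0.38 ± 0.14 (adjusted p = 0.0127), and E2F2 lay between them at -0.49. Both dIWS1 columns of each gene were below the control. The activators, relative to the median gene, were at -0.19, -0.07 and 0.04, with no call. E2F3 lost its call on the spike-in scale with a mean trend in place of voom weights.

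Of the E2F repressors, 2 of 5 were called lower. E2F5, which works with the pocket proteins p107 and p130, fell from 848 to 548 and 567 scaled reads, or -0.61 ± 0.13 (adjusted p = 2.85e-05), and E2F4, of the same subgroup, by a like amount (-0.59 ± 0.13, adjusted p = 3.61e-05). E2F7, an atypical E2F that represses without a dimer partner, had 1107 in the control and 1030.0 and 1133 in the dIWS1 columns, on either side of it, or -0.03 ± 0.14 (adjusted p = 0.818). E2F7 was at 0.39 relative to the median gene, just outside the threshold (adjusted p = 0.0534). E2F6, linked to polycomb repression, and E2F8, the other atypical member, were at -0.22 and -0.23, with no call on either scale. No test compared the repressors with each other.

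Both dimer partners of the E2F factors fell on the spike-in scale, while with total reads as the scale TFDP2 lay at 0.06. TFDP1 had 4152 scaled reads in the control against 2335 and 2617, or -0.75 ± 0.15 (adjusted p = 7.16e-06), a level of 59.6% of control. TFDP2 had 5634 against 4146 and 4481, or -0.39 ± 0.15 (adjusted p = 0.0194). Their values relative to the median gene were -0.32 and 0.04, neither past the threshold, and TFDP2 lost its call on the spike-in scale with the mean trend.

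Of the pocket proteins, which hold E2F factors in check, RB1 fell from 3404 to 2087 and 2244 scaled reads, or -0.65 ± 0.15 (adjusted p = 7.9e-05), and RBL1 (p107) with -0.60 ± 0.15 (adjusted p = 0.000269). RBL2 (p130), the pocket protein of resting cells, had 3525 against 2835 and 3116, or -0.25 ± 0.15 (adjusted p = 0.136). Both columns of RBL2 were below the control, and its 95% interval, from -0.54 to 0.05, included no change. A long noncoding RNA of the current GENCODE annotation shares the strand and part of the span of RB1. The same holds for other genes here, among them CDK10 (4568 bases shared) and CCNB2 (4012 bases).

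Of the genes here, 6 encode phosphatases and kinases that act on CDKs or their bound partners, and 2 of them fell. PKMYT1, a membrane-bound kinase that inhibits CDK1, had 858 scaled reads in the control against 547 and 551, or -0.64 ± 0.13 (adjusted p = 9.24e-06). CDC25B, a phosphatase that activates CDK1, fell with -0.49 ± 0.16 (adjusted p = 0.00387). CDC25A, its relative at the entry into S phase, had 2053 against 1645 and 1983, or -0.18 ± 0.15 (adjusted p = 0.246). The others, CDC25C (-0.25), CDKN3 (-0.21) and WEE1 (-0.31, adjusted p = 0.061), did not pass the test. WEE1 and PKMYT1 both place inhibitory phosphates on CDK1, and only PKMYT1 was called. The difference between them was not tested.

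Of the substrate receptors of the cell-cycle ubiquitin ligases, FZR1 (CDH1, the activator of APC/C in G1) fell from 1302 to 863 and 898 scaled reads, or -0.56 ± 0.14 (adjusted p = 0.00019), and CDC20, its mitotic counterpart, with -0.45 ± 0.14 (adjusted p = 0.00274). SKP2, the SCF subunit that marks p27 for removal, had 2164 against 1864 and 1974, or -0.17 ± 0.15 (adjusted p = 0.275). None of the 3 was called relative to the median gene.

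**Figure D2:**
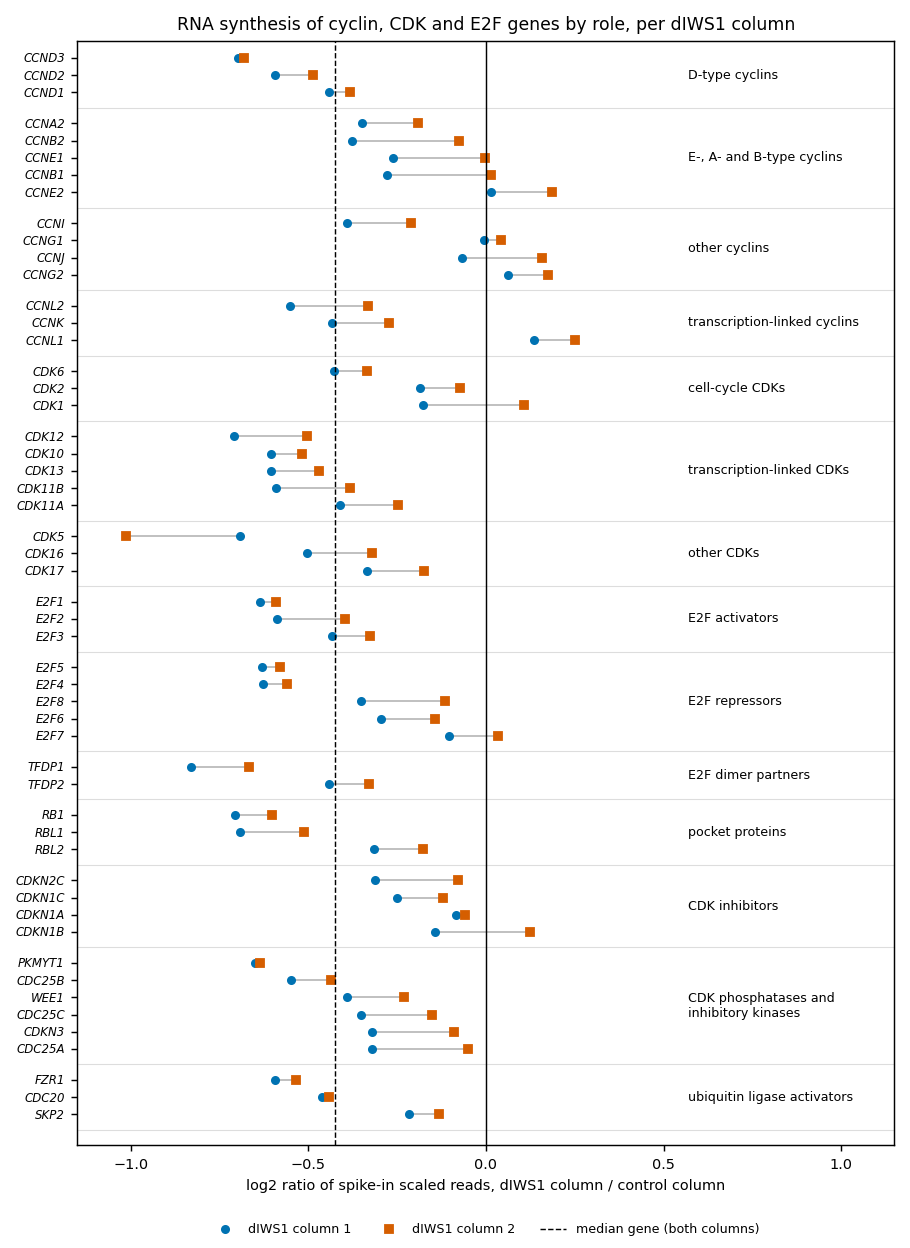
Log2 ratio of spike-in scaled reads of each dIWS1 column over the control column for the 52 genes, grouped by role, with column 1 as circles and column 2 as squares joined by a line. The solid line is the control level and the dashed line the median gene at -0.42. On this scale 43 of the 52 genes lie left of the control line in both columns (82.7%, against 92.7% of all tested genes). The transcription-linked CDKs, E2F activators and dimer partners are among them. CCNL1, CCNG2 and CCNE2 lie right of it in both (5.77%, against 1.76%).

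Set side by side by role, the list medians of the log2 fold change ran from -0.60 for the pocket proteins, -0.57 for the E2F dimer partners, -0.54 for the D-type cyclins and -0.54 for the transcription-linked CDKs to -0.13 for the E-, A- and B-type cyclins, -0.13 for the cell-cycle CDKs, -0.13 for the CDK inhibitors and 0.03 for the other cyclins. The E2F activators (-0.49), the receptors of the ubiquitin ligases (-0.45), the other CDKs (-0.41), the transcription-linked cyclins (-0.35), the phosphatases and inhibitory kinases (-0.28) and the E2F repressors (-0.23) lay between. Each list has only 2 to 6 genes, and no test compared the lists. The scale relative to the median gene subtracts the same constant from every value, so the order of the lists is unchanged by construction. On it the first group lay from -0.18 to -0.11 and the second from 0.29 to 0.46. The median of the other cyclins was -0.04 in column 1 and 0.10 in column 2 of the spike-in scale, so its sign depends on the column.

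Partners that form a complex can be set side by side. Cyclin K was at -0.35 and its kinases CDK12 and CDK13 at -0.61 and -0.54. For the splicing pair of cyclin L and CDK11, CCNL1 was at 0.19, CCNL2 at -0.44, CDK11A at -0.33 and CDK11B at -0.49. CDK2 was at -0.13 beside CCNE1 at -0.13, CCNE2 at 0.10 and CCNA2 at -0.27, and CDK1 at -0.04 beside CCNB1 at -0.13 and CCNB2 at -0.23. These values are log2 fold changes on the spike-in scale, and no test compared the partners.

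The 6 genes called higher relative to the median gene were CCNL1, CCNG2, CCNE2, CCNJ, CCNG1 and CDKN1B. CCNL1 spans chr3:157143121-157160147, CCNG2 chr4:77157207-77170060, CCNE2 chr8:94880224-94896693, CCNJ chr10:96043068-96060870, CCNG1 chr5:163437571-163457640 and CDKN1B chr12:12717368-12722369 in GRCh38.p14. None of them passed the test on the spike-in scale, so the calls place them above the median gene and not above the control. CCNG1, CCNJ and CDKN1B lost the call with a mean trend in place of voom weights and with the robust option, and CDKN1B also with the control column entered 2 times. The GENCODE annotation places ENTPD1-AS1 over nearly all of CCNJ and GPR19 over CDKN1B on the opposite strand. There a long noncoding RNA also shares 38898 bases with CCNG2, and INTS8 and NDUFAF6 share 1977 and 1146 bases with CCNE2. The counts were made with respect to strand.

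The SE of these tests includes the shift of 0.10 between the medians of the dIWS1 columns. When each column was first centred on its own median gene, an alternative added after the data were seen, 15 of the 52 genes (28.8%) were called higher, against 15% of all tested genes, and 5 (9.62%) were called lower, against 14.9%. The genes added to the higher group were CDK1 (0.39, adjusted p = 8.4e-06), E2F7 (0.39), CCNE1 (0.29), CCNB1 (0.29), SKP2 (0.25), CDC25A (0.24), E2F6 (0.20), CCNB2 (0.19) and CDK17 (0.17). The lower group held TFDP1 (-0.33, adjusted p = 2.63e-04), CCND3 (-0.27), RB1 (-0.23), CDK12 (-0.18) and RBL1 (-0.18).

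**Figure D3:**
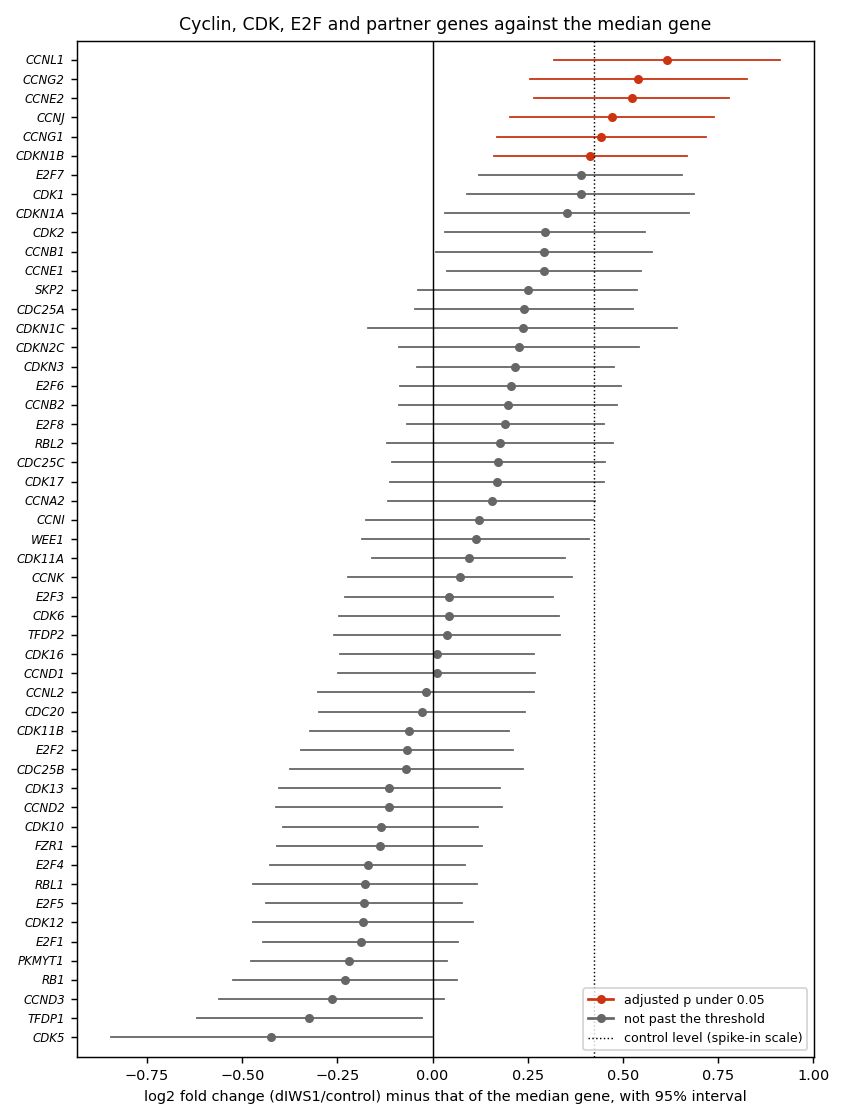
Fitted log2 fold change of the 52 genes minus that of the median gene, with 95% intervals, ordered by value. The solid line is the median gene and the dotted line the control level on the spike-in scale. The 6 genes called higher (red) lie from 0.41 to 0.62, near the control level, and CDK5 is lowest at -0.42.

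The genes differ in size and output. Their RefSeq spans had a median of 20 kb, against 28.5 kb for all tested genes with a span, and the control column held a median of 66.7 reads per kb of span, against 42.6. Per length, E2F3 (295 reads per kb), WEE1 (259) and CDK1 (258) were the most transcribed, and CDC25B (12.3), CDKN2C (14.2) and CDKN1A (16.7) the least. These levels belong to the control column and carry no replicate spread.

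Of the 9 cyclin, CDK, E2F and partner genes longer than 65 kb, 8 fell (88.9%, against 77.8% of all tested genes of that length), namely CDK6, TFDP2, RB1, CDK13, CCND3, CDK12, RBL1 and E2F3, and CDK17 did not pass the test. Of the 9 under 10 kb, 5 fell (55.6%, against 64.3%). In between, 7 of 22 genes from 10 to 25 kb (31.8%, against 63.4%) and 6 of 12 from 25 to 65 kb (50%, against 56.6%) were called lower. The median log2 fold change was -0.54 for the longest genes and -0.21 for those from 10 to 25 kb, where all tested genes of these classes had -0.49 and -0.39. Across the 52 genes the log2 span and the fold change had Pearson's r = -0.23 and Spearman's rho = -0.23, and across 9220 tested genes 0.03 and -0.02. These points share the same 3 columns, and the correlations are given as a description across genes, which are not independent replicates.

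**Figure D4:**
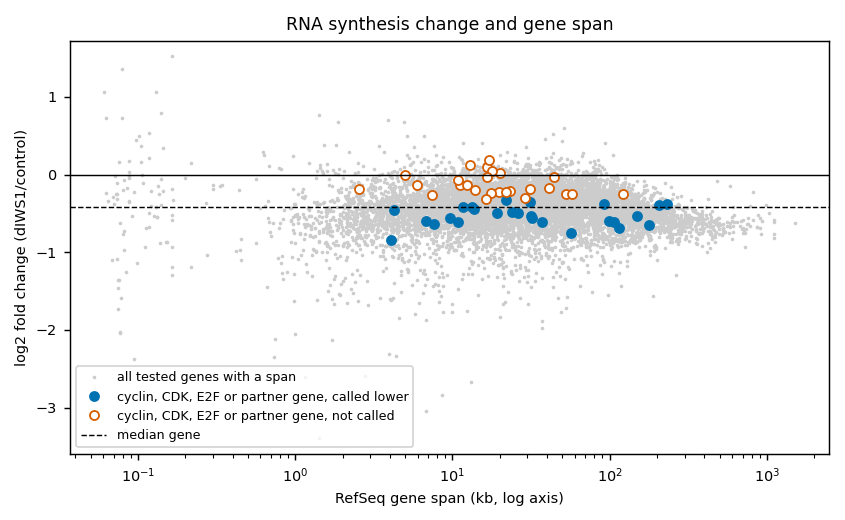
Fitted log2 fold change (dIWS1/control) against RefSeq gene span in kb (log axis) for all tested genes with a span (grey) and for the 52 cyclin, CDK, E2F and partner genes, called lower (filled) or not called (open). The dashed line is the median gene. Among the 52 genes, 8 of 9 over 65 kb are filled (88.9%, against 77.8% of all tested genes of that length). From 10 to 25 kb 7 of 22 are filled (31.8%, against 63.4%), and from 25 to 65 kb 6 of 12 (50%, against 56.6%). Under 10 kb 5 of 9 are filled (55.6%, against 64.3%).

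The machinery around these genes was read from lists of neighbouring pathway genes. Of 16 E2F target genes of DNA replication that are in the table, 9 fell and 1 was called higher relative to the median gene, with a list median of -0.34 and values from -0.65 for the helicase subunit MCM2 to 0.01 for the ribonucleotide reductase subunit RRM2. Of 15 subunits of the SCF and APC/C ubiquitin ligases and their regulators, 8 fell and 1 was higher relative to the median gene, from -0.67 for BTRC to 0.12 for FBXO5, an APC/C inhibitor, around a median of -0.33. The MuvB core and its partners, which bind the CHR, fell in 4 of 6 cases around a median of -0.36. A further list named cyclins and CDKs, those of P-TEFb, Mediator and TFIIH included, and some genes that are neither, such as CDKAL1 and CDK2AP1. Of its 13 tested genes, 8 fell and 1 was higher relative to the median gene. Their median was -0.43, with values from -0.70 for CDK19 to 0.07 for CDK7. No gene of these lists was called lower relative to the median gene (1 was at an unadjusted p under 0.05), and none rose on the spike-in scale, also at an unadjusted p under 0.05. The counts stand beside 65% of all tested genes that fell. Relative to the median gene, 2.94% of all tested genes were called higher and 4.86% lower (11.9% lower at an unadjusted p under 0.05). On the spike-in scale 0.13% were called higher, or 0.18% at an unadjusted p under 0.05.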

How the data were processed

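TT-seq was performed in 2 control and 2 dIWS1 libraries. Per the labels and the methods, the authors aligned read pairs to GRCh38 with added spike-in sequences using STAR 2.6.0, kept unique alignments, counted them per RefSeq gene with respect to strand, removed overlapping genes and kept those over 10 reads per kb. The deposited table holds, per gene, a signal (the authors' mean over libraries of counts divided by spike-in size factors) and columns of the authors' own DESeq2 comparison: log2 fold changes, their standard errors, test scores, and p-values before and after adjustment. The deposited log2 values served only to split each mean into whole reads and to tell the control from the dIWS1 columns. Apart from the check of this split given below, none of these columns is printed or compared. The file does not name the direction of the fold change, which was read as dIWS1 over control from the paper's usage. The plan had allowed for counts per sample, and the table held means instead.

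The smallest means that were no sum of smaller ones gave 3 steps. All 10136 genes with a mean above 0 (100%) then split into 1 set of whole reads. Over 4930 genes with a mean over 1000, the largest gap between fold changes from these reads and the deposited log2 values was 0.00133. For these genes the split was searched near the deposited value, so a close match is partly built in. The columns could not be matched to replicate numbers. The fit used limma 3.58.1 (voom, group only, library sizes proportional to the spike-in size factors) in R 4.3.3 for 10007 genes with at least 10 reads over the 3 columns, two-sided, with Benjamini-Hochberg adjustment over all of them. The spread came from the 2 dIWS1 columns, and limma pooled it over all genes. The median fold change was then subtracted for the values relative to the median gene. Single-column ratios used a pseudocount of 0.5. Other filters, thresholds, scalings and fits were tried, and the scripts were tested on simulated data. Replicates are biological per the methods.

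The members and lists were chosen with earlier results of these data known. The text gives full values for all D-, E-, A- and B-type cyclins, cell-cycle CDKs, CDK inhibitors and genes called relative to the median gene, and otherwise for the lowest and highest of each role list, with short values for the rest. Spans and promoters are from RefSeq (GRCh38.p14), with 52 and 43 of the 52 genes matched. CCND1, CCND2, WEE1, E2F8, CDKN1C, CDK2, CCNE2, E2F5 and PKMYT1 had no entry in the promoter table. Overlaps are from GENCODE release 44. Python 3.11.15 was used with numpy 2.4.6, pandas 2.3.3, scipy 1.17.1 and matplotlib 3.10.9.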

Additional observations from a re-analysis of the deposited data

How the results depend on the processing

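The counts of the 52 genes called lower and higher on the spike-in scale (26 and 0) were 26 and 0 with at least 100 reads and without a filter on reads, 25 and 0 with the robust option, 22 and 0 with a mean trend on log2 values and 33 and 1 with the control column entered 2 times, which lends the control a spread of 0. They were 21 and 0 at an adjusted p under 0.01 and 29 and 0 under 0.1, and 36 and 21 were called lower with all fold changes moved down or up by 0.1. Scaled by total reads, 5 were called lower and 18 higher, and recentred on the median gene 0 and 6. Relative to the median gene the counts of lower and higher calls (0 and 6) were 0 and 6 with at least 100 reads, 0 and 7 without the filter, 0 and 3 with the mean trend, 0 and 3 with the robust option, 0 and 3 at an adjusted p under 0.01, 0 and 8 under 0.1, 6 and 9 with the control column entered 2 times and 5 and 15 with each column centred on its own median gene. With dIWS1 column 1 or column 2 left out, the median log2 fold change of the 52 genes was -0.24 or -0.40, as values with no test. No paired analysis was possible because the recovered columns carry no replicate number.

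Recentring on the median gene and scaling by total reads, which set the common decrease to about 0, moved every list median, to 0.10 and 0.12 for all 52 genes, -0.12 and -0.097 for D-type cyclins, 0.29 and 0.31 for E-, A- and B-type cyclins, 0.46 and 0.47 for other cyclins, 0.071 and 0.089 for transcription-linked cyclins, 0.29 and 0.31 for cell-cycle CDKs, -0.11 and -0.095 for transcription-linked CDKs, 0.012 and 0.030 for other CDKs, -0.067 and -0.050 for E2F activators, 0.19 and 0.21 for E2F repressors, -0.14 and -0.13 for E2F dimer partners, -0.18 and -0.16 for pocket proteins, 0.29 and 0.31 for CDK inhibitors, 0.14 and 0.16 for CDK phosphatases and inhibitory kinases and -0.028 and -0.010 for the ubiquitin ligase activators and SKP2, in that order of scales. By construction they also turned the sign of genes that lay between the control and the common level, to 0.16 and 0.17 for CCNA2, 0.29 and 0.31 for CCNB1, 0.20 and 0.22 for CCNB2, 0.011 and 0.029 for CCND1, 0.29 and 0.31 for CCNE1, 0.12 and 0.14 for CCNI, 0.24 and 0.26 for CDC25A, 0.39 and 0.41 for CDK1, 0.095 and 0.11 for CDK11A, 0.17 and 0.19 for CDK17, 0.29 and 0.31 for CDK2, 0.043 and 0.061 for CDK6, 0.35 and 0.37 for CDKN1A, 0.41 and 0.43 for CDKN1B, 0.24 and 0.26 for CDKN1C, 0.23 and 0.25 for CDKN2C, 0.044 and 0.062 for E2F3, 0.39 and 0.41 for E2F7, 0.18 and 0.20 for RBL2, 0.25 and 0.27 for SKP2 and 0.038 and 0.056 for TFDP2. Scaled by total reads CCNL2 was at 0.00023. Moved down by 0.1, the values were -0.00059 for CCNE2, -0.081 for CCNG1 and -0.054 for CCNJ, and moved up by 0.1 they were 0.065 for CDK1, 0.028 for CDKN1A, 0.091 for CDKN1B and 0.065 for E2F7. The pseudocount, at 1 or 5 in place of 0.5, left the median of the 52 genes at -0.32. Precision is limited by the single control column and, for CDK5 and CDKN1C, by their 107 and 98 control reads.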
